A study of Mus musculus with 8 samples.

Results

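The 43 genes described here make up the machinery that copies DNA in S phase, from the proteins that mark and load origins to the enzymes that seal the new strands, together with nucleotide supply, chromatin factors of new DNA and regulators of S-phase entry. They were given as a list of symbols, and each was matched to its Ensembl identifier, so that they account for 43 of the 53465 gene identifiers in the count table. The list was put together by function, with earlier results of these data known. Poly(A) RNA was measured by RNA-seq in heart ventricles of mouse embryos at embryonic day 15.5 (E15.5), with 4 libraries of each of 2 genotypes and 1 ventricle sample per library. The *Nrg1GOF* embryos carried an *Nrg1* transgene at the Rosa26 locus and a cardiac Cre driver, which makes cells of the driver's lineage overproduce neuregulin-1, a secreted growth factor that acts through ErbB receptors. The driver is written Nkx5.5-Cre in the genotype label and Nkx2.5-Cre in a paper that re-used the published data of this model. The control embryos are labelled WT, with no word on whether they carried the driver or the transgene alone, and no litter, sex or preparation date was given. The Nkx2.5 lineage holds cardiomyocytes and part of the other cells of the heart.

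Each origin is licensed once per cell cycle, when the origin recognition complex, CDC6 and CDT1 load the MCM hexamer, the motor of the replicative helicase. In S phase CDC45 and the GINS complex join the hexamer to form the active helicase, primase and the DNA polymerases build the new strands, and the PCNA clamp, loaded by the RFC complex, holds the polymerases in place. Many of these genes are transcribed under E2F factors, which the retinoblastoma protein and its relatives hold back until cyclin-dependent kinases release them. Fetal ventricular cardiomyocytes still divide at this stage, as do the endocardial, epicardial and mesenchymal cells around them, and all of them use the same replication machinery.

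*Nrg1* itself stood between 59.7 and 63.7 CPM in the *Nrg1GOF* libraries and between 3.07 and 4.47 CPM in the WT libraries, as the genotype labels require. CPM are counts-per-million after TMM scaling (trimmed mean of M-values), which sets libraries to a common level by the bulk of their genes. Library totals ran from 8038641 counts in *Nrg1GOF* library 4 to 26786039 in WT library 1. All 9 cardiomyocyte markers examined were above 0 in every library. WT libraries 1 and 2 resembled each other more than WT libraries 3 and 4, with correlations across genes of 0.99 within these pairs and 0.98 between them, and the counts of called genes are therefore also given against each pair. P values measure the spread between these libraries, since nothing beyond 1 ventricle sample per library states how the embryos were drawn.

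The promoters of the 43 genes were looked at for the sequences that such genes are known to share. RefSeq promoters (GRCm38.p6, 250 bases before to 50 after the start) were at hand for 35 of the 43. An E2F word (TTTGGCGC, TTTCGCGC, TTTCCCGC or TTTGCCGC, on either strand) lay in the promoters of 14 of the 35 genes (40.0%), against 2.26% of all 32851 promoters and 2.61% of all 27025 genes with a promoter. The NF-Y word CCAAT was found for 21 of 35 (60.0%) against 41.1% of all genes, and the GC box GGGCGG for 28 (80.0%) against 38.2%. The CHR word TTTGAA, which marks many genes of the later cell cycle, was found for 5 (14.3%) against 20.2% of all genes, and for 19 of 25 mitotic genes (76.0%). In 9 genes an E2F word lay before a RefSeq start, and in 5 of these the stretch around it touched no annotated exon. These 5 stretches are shown first, with the E2F words in capitals, because they show the letters shared by genes that fell in *Nrg1GOF* (*Mcm6*, *Cdc6* and *Uhrf1*) and genes that were not called (*Mcm5* and *Pola1*). All run 5′ to 3′ on the strand of the gene.
Mcm6, chr1:128359720-128359840, minus strand: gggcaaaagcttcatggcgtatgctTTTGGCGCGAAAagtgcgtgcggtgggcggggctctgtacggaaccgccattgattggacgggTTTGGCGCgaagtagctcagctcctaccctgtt
Cdc6, chr11:98907988-98908045, plus strand: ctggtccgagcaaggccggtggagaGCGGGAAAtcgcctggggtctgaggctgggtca
Uhrf1, chr17:56304103-56304160, plus strand: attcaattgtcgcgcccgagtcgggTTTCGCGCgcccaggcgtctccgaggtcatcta
Mcm5, chr8:75109331-75109392, plus strand: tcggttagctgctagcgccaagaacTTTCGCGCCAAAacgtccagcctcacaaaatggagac
Pola1, chrX:93632261-93632318, minus strand: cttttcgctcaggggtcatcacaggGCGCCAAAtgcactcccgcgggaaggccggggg
In *Mcm6* and *Mcm5* a pair of words on opposite strands overlap within 1 run of capitals. Next come 3 stretches around CCAAT words, in capitals on either strand, from the ribonucleotide reductase genes *Rrm1* and *Rrm2* and from *Chaf1a*, which all fell in *Nrg1GOF* and held no E2F word in the window.
Rrm2, chr12:24708179-24708233, plus strand: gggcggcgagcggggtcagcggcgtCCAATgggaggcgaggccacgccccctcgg
Rrm1, chr7:102441579-102441679, plus strand: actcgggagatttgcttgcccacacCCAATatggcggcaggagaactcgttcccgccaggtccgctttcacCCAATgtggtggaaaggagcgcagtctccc
Chaf1a, chr17:56040310-56040364, plus strand: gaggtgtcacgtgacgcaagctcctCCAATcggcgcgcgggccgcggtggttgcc
An E2F word was held by 7 of the 21 called genes with a promoter (33.3%) and by 7 of the 14 that were not called (50%), and a CCAAT word by 12 (57.1%) and 9 (64.3%) of them. A match describes letters in the window and is not evidence of binding.

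As a group the replication genes were lower in *Nrg1GOF* ventricles under TMM scaling. With libraries scaled to cardiomyocyte markers, which shifts all genes by about the same amount, their median log2 fold change was 0.025. That of all genes was 0.23. In that fit 3 were called lower (*Mcm7*, *Gins1* and *Rrm2*) and 4 higher (*Orc1*, *Orc6*, *Gins4* and *Ccne1*). Over all genes it called 3.32% lower and 36.8% higher. Calls and directions in what follows are those under TMM scaling unless another is named. Counts by role stand against 12.8% of all genes called lower and 15.9% called higher. All 43 passed the filter on low counts, 25 of them (58.1%) were called lower at an adjusted p under 0.05 (edgeR quasi-likelihood test, Benjamini-Hochberg adjustment over all 15580 genes tested), and 0 were called higher. At an unadjusted p under 0.05 the counts were 30 lower and 0 higher. Of all 15580 genes, 6126 had such a p, in either direction. DESeq2 and limma-voom called 24 of the 43 lower each and 0 higher, and 2080 and 2034 lower over all genes. Over all genes tested, 28.7% were called, 12.8% lower and 15.9% higher. The median log2 fold change of the 43 genes was -0.22, against -0.01 over all genes, and 40 of the 43 values were below 0. The falls were modest in size, from 11.4% in *Slbp* to 36.3% in *Gins1* among the called genes, and 2 genes, *Gins1* and *Rrm2*, passed a log2 change of 0.5. In 21 of the 43 genes every *Nrg1GOF* library lay below every WT library, as it did in 14.1% of all genes, and in 0 did every *Nrg1GOF* library lie above, as it did in 16.6% of all genes. In bulk tissue, fewer cells in S phase, a smaller share of dividing cell types and less of these RNAs per cell cannot be told apart.

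**Figure D1:**
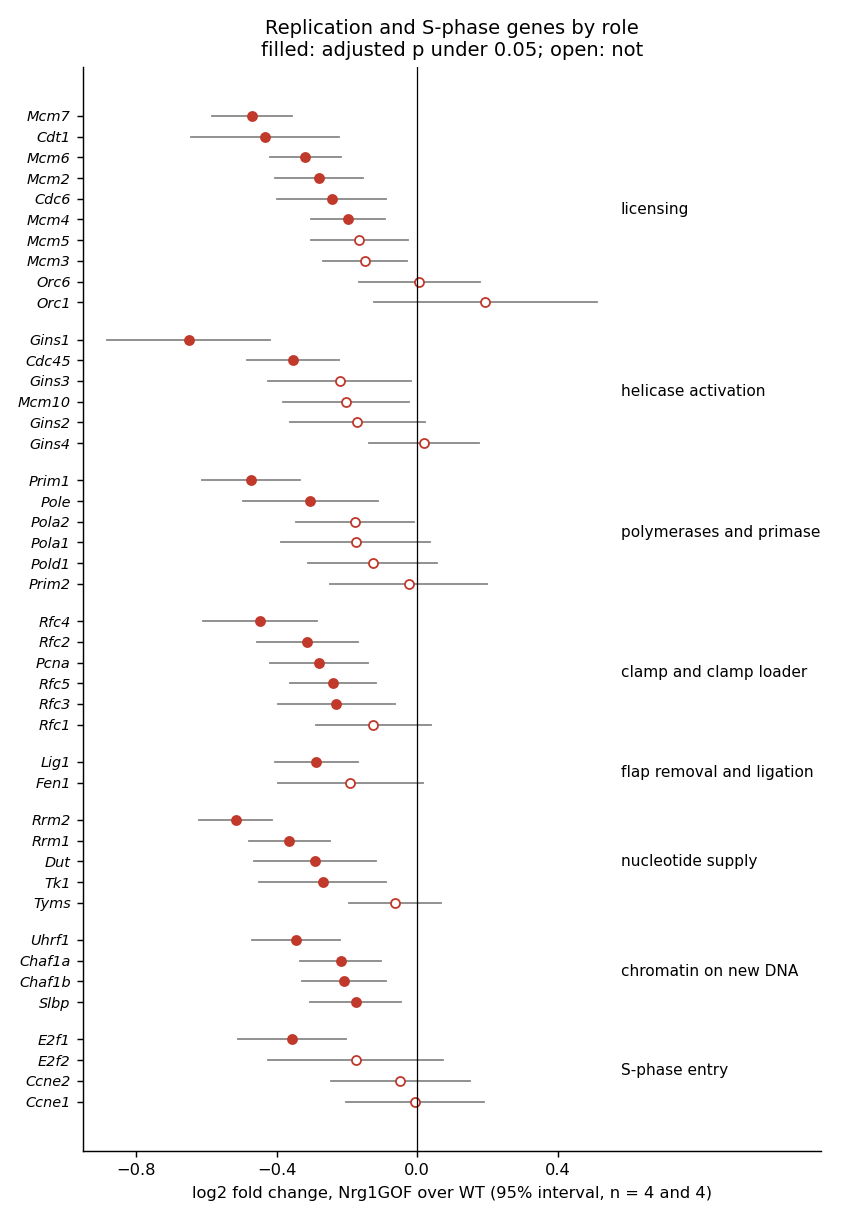
Log2 fold change (x axis, *Nrg1GOF* over WT, bars are 95% intervals, n = 4 libraries in each group) of the 43 genes, grouped by role and ordered by value within a role. Filled points are the 25 genes with an adjusted p under 0.05, all of them left of 0, and open points the 18 others, which reach from -0.22 for *Gins3* to 0.19 for *Orc1*.

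Among the 10 licensing genes, which place the MCM hexamer on origins, 6 fell and 4 were not called. *Mcm7* (ENSMUSG00000029730, GRCm38 chromosome 5, 138164583 to 138172422, minus strand), a subunit of the hexamer, was at 100.0, 105, 105 and 109 CPM in *Nrg1GOF* and at 151, 138, 148 and 143 CPM in WT (libraries in the order 1 to 4, here and in what follows). The log2 fold change was -0.47 (SE 0.05, edgeR adjusted p = 0.000165), with a wide gap between the groups. *Mcm6* was at 146, 146, 146 and 149 CPM in *Nrg1GOF* and at 189, 184, 185 and 175 CPM in WT, a log2 fold change of -0.32 (SE 0.05, edgeR adjusted p = 0.000779). The 4 *Nrg1GOF* values of *Mcm6* were almost equal and all below the WT values. *Mcm2* was at 107, 109, 105 and 117 CPM in *Nrg1GOF* and at 138, 137, 130.2 and 125 CPM in WT, with a log2 fold change of -0.28 (SE 0.06, edgeR adjusted p = 0.00484) and no overlap. *Cdt1*, the loading factor that is destroyed once S phase begins, fell by 25.9%, from 51.1 ± 2.90 to 38.1 ± 5.40 CPM (SD, n = 4 each, edgeR adjusted p = 0.00738). *Mcm4* fell by 12.7% and *Cdc6*, which recruits the hexamer with CDT1, by 15.5%. The call of *Cdc6* was lost in 6 of 8 fits made with 7 of the 8 libraries.

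The other members of the hexamer pointed the same way without passing the threshold. *Mcm3* had a log2 fold change of -0.15 (95% interval -0.27 to -0.03, edgeR adjusted p = 0.0666) and *Mcm5* of -0.16 (95% interval -0.30 to -0.03, edgeR adjusted p = 0.0735). The 2 genes of the origin recognition complex on the list were not called, and their fitted values lay above 0 with intervals that held 0. With libraries scaled to the cardiomyocyte markers, *Orc1* (0.44) and *Orc6* (0.25) were called higher (edgeR adjusted p = 0.0478 and 0.022). *Mcm7* was called lower there, and over all genes 3.32% were called lower and 36.8% higher. *Orc1*, the subunit that is made and degraded with each cycle, was at 8.94, 6.86, 6.89 and 6.0 CPM in *Nrg1GOF* and at 6.84, 6.82, 5.99 and 5.65 CPM in WT. Its log2 fold change of 0.19 had an interval from -0.12 to 0.51, and the groups overlapped. *Orc6* was at 28.4 ± 2.09 CPM in *Nrg1GOF* and 28.1 ± 2.17 CPM in WT (SD, n = 4 each), with an interval from -0.17 to 0.18. The exons of *Mcm7* overlap *Ap4m1* and *Cops6* on the opposite strand and 2 miRNA genes on its own, and those of *Orc1* and *Orc6* overlap *Gm12743* and *Vps35*. The libraries kept strand, but it was not given whether the counting used it, so reads from these neighbours cannot be told apart from their own. In all, 15 of the 43 genes, 10 of them called, overlap an exon on the opposite strand, and the others are named with their roles.

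Of the 6 genes that turn the loaded hexamer into a moving helicase, 2 fell and 4 were not called. *Gins1* (ENSMUSG00000027454, chromosome 2, 150905400 to 150931280, plus strand), a subunit of the 4-part GINS complex, showed the strongest fall of the 43 genes. It was at 10.4, 8.48, 11.3 and 10.9 CPM in *Nrg1GOF* and at 17.3, 15.2, 16.2 and 15.5 CPM in WT, a log2 fold change of -0.65 (SE 0.10, edgeR adjusted p = 0.00139). The groups were well separated. *Cdc45*, which joins MCM and GINS at the fork, was at 25.9, 23.6, 23.3 and 26 CPM in *Nrg1GOF* and at 31.4, 31.0, 31.6 and 31.8 CPM in WT. The log2 fold change was -0.35 (SE 0.06, edgeR adjusted p = 0.00169), and the WT values in particular were tightly grouped. *Mcm10*, which helps to fire the helicase, was at 16.7, 18.7, 19.7 and 18.3 CPM in *Nrg1GOF* and at 21.9, 19.3, 22.6 and 20.5 CPM in WT. The groups overlapped in 1 library each, and the log2 fold change of -0.20 (95% interval -0.38 to -0.02) was not called (edgeR adjusted p = 0.0887). The partners of *Gins1* differed from it in size of change: *Gins2* and *Gins3* were at -0.17 and -0.22 and were not called, while *Gins4* was at 21.1 ± 1.48 CPM in *Nrg1GOF* and 20.7 ± 0.79 CPM in WT (SD, n = 4 each), with an interval from -0.14 to 0.18. With libraries scaled to the cardiomyocyte markers, *Gins1* was called lower and *Gins4* higher, against 3.32% and 36.8% of all genes. The exons of *Cdc45* and *Gins2* overlap opposite-strand genes, *Ufd1* and *Gse1*.

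Of the 6 genes for primase and the DNA polymerases, 2 fell and 4 were not called. *Prim1* (ENSMUSG00000025395, chromosome 10, 128015168 to 128030037, plus strand) encodes the catalytic subunit of primase, which lays the RNA primer of each new strand. It was at 27.4, 26.3, 26.8 and 23.8 CPM in *Nrg1GOF* and at 37.9, 34.2, 35.9 and 37.2 CPM in WT, a log2 fold change of -0.47 (SE 0.06, edgeR adjusted p = 0.000502) with no overlap. *Pole*, the catalytic subunit of the leading-strand polymerase epsilon, was at 35.4, 37.4, 45.8 and 38.4 CPM in *Nrg1GOF* and at 44.8, 53.0, 47.9 and 48.6 CPM in WT. *Nrg1GOF* library 3 reached into the WT range, the log2 fold change was -0.30 (SE 0.09, edgeR adjusted p = 0.025), and the call was lost in 5 of 8 fits with 1 library removed. *Pola2*, a subunit of polymerase alpha, was at 28, 29.9, 31.6 and 31.6 CPM in *Nrg1GOF* and at 32.3, 30.9, 36.1 and 37.2 CPM in WT. Its groups overlapped, and its log2 fold change of -0.18 (95% interval -0.35 to -0.01) was not called (edgeR adjusted p = 0.111). The large subunits *Pola1* and *Pold1* were at -0.17 (95% interval -0.39 to 0.04) and -0.13 (95% interval -0.31 to 0.06). *Prim2*, the partner of *Prim1* in primase, was at 13.6 ± 0.715 CPM in *Nrg1GOF* and 13.9 ± 1.75 CPM in WT (SD, n = 4 each), with an interval from -0.25 to 0.20. The exons of *Pole* overlap *Gm15792* on the opposite strand.

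Of the 6 genes of the sliding clamp and its loader, 5 fell under TMM scaling. With libraries scaled to the cardiomyocyte markers none of the 6 was called, and *Rfc1*, *Rfc3* and *Rfc5* were at 0.12, 0.011 and 0.0056 on the log2 scale. *Rfc4* (ENSMUSG00000022881, chromosome 16, 23113943 to 23127737, minus strand), a small subunit of the loader, was at 23.0, 21.4, 20.1 and 21.3 CPM in *Nrg1GOF* and at 31.4, 30.2, 26.6 and 28.9 CPM in WT, a log2 fold change of -0.45 (SE 0.07, edgeR adjusted p = 0.00147). *Rfc2* was at 43.4, 46.1, 49.7 and 48.1 CPM in *Nrg1GOF* and at 53.4, 56.9, 61.1 and 60.9 CPM in WT, a log2 fold change of -0.31 (SE 0.06, edgeR adjusted p = 0.00536). In neither gene did the groups overlap. *Pcna*, the clamp, was at 127, 129, 116 and 125 CPM in *Nrg1GOF* and at 145, 138, 159.6 and 159 CPM in WT. It had a log2 fold change of -0.28 (SE 0.06, edgeR adjusted p = 0.00852), and all *Nrg1GOF* values were below all WT values. A copy of *Pcna*, *Pcna-ps2*, which is 99.2% identical to it over 781 bases, held between 5.05% and 23.1% of the counts of the pair, and the summed level of both was 135 to 156 CPM in *Nrg1GOF* and 168 to 182 CPM in WT. *Rfc5* fell by 15.3% and *Rfc3* by 14.7%, the latter with a call that was lost in 6 of 8 fits with 1 library removed. *Rfc1*, the large subunit, was at -0.12 (95% interval -0.29 to 0.04, edgeR adjusted p = 0.242). The exons of *Rfc2*, *Rfc4* and *Rfc5* overlap *Lat2*, *Eif4a2* and *Wsb2* on the opposite strand.

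The lagging strand is finished by FEN1, which trims the primer flap, and by DNA ligase 1, which seals the nick. *Lig1* (ENSMUSG00000056394, chromosome 7, 13277283 to 13311433, plus strand) was at 72.3, 73.7, 78.8 and 70.4 CPM in *Nrg1GOF* and at 91.8, 86.1, 93.4 and 89.1 CPM in WT, a log2 fold change of -0.29 (SE 0.05, edgeR adjusted p = 0.00314) with separate groups. *Fen1* was at 29.0, 33.1, 31.8 and 36.3 CPM in *Nrg1GOF* and at 42.9, 34.1, 36.6 and 33.9 CPM in WT. *Nrg1GOF* library 4 was above 2 of the WT libraries, and the log2 fold change of -0.19 (95% interval -0.40 to 0.02) was not called (edgeR adjusted p = 0.161). The exons of both overlap opposite-strand genes, *Zswim9* for *Lig1*, and *Gm10143* and *Tmem258* for *Fen1*.

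Of the 5 genes that supply nucleotides for the new strands, 4 fell. *Rrm2* (ENSMUSG00000020649, chromosome 12, 24708241 to 24714146, plus strand), the regulatory subunit of ribonucleotide reductase whose level follows S phase, had the lowest adjusted p of the 43 genes. It was at 149, 152, 143 and 151 CPM in *Nrg1GOF* and at 221, 208, 211 and 212 CPM in WT, a log2 fold change of -0.52 (SE 0.05, edgeR adjusted p = 6.79e-05). *Rrm1*, the catalytic subunit, was at 223, 209, 209 and 230.4 CPM in *Nrg1GOF* and at 285, 285, 282 and 269.9 CPM in WT, a log2 fold change of -0.36 (SE 0.05, edgeR adjusted p = 0.000725). Both subunits were lower in every *Nrg1GOF* library than in any WT library. *Dut*, whose enzyme keeps uracil out of DNA by breaking down dUTP, was at 41.2, 44, 40.2 and 48.8 CPM in *Nrg1GOF* and at 56.1, 55.0, 47.0 and 54.0 CPM in WT. Its log2 fold change was -0.29 (SE 0.08, edgeR adjusted p = 0.0195), *Nrg1GOF* library 4 lay above WT library 3, and the call was lost in 4 of 8 fits with 1 library removed. *Tk1*, the thymidine salvage kinase, fell by 17.0% with a call lost in 5 of those 8. *Tyms*, which makes thymidylate anew, was at 27.8 ± 1.25 CPM in *Nrg1GOF* and 29.1 ± 1.09 CPM in WT (SD, n = 4 each), and its interval reached from -0.19 to 0.07. The exons of *Tk1* overlap *Afmid* on the opposite strand.

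All 4 genes that handle chromatin on new DNA fell under TMM scaling. With libraries scaled to the cardiomyocyte markers none of the 4 was called, and *Chaf1a*, *Chaf1b* and *Slbp* were at 0.026, 0.035 and 0.070 on the log2 scale. *Uhrf1* (ENSMUSG00000001228, chromosome 17, 56303321 to 56323486, plus strand), which brings the maintenance methyltransferase to hemimethylated DNA, was at 87.8, 97.9, 99.2 and 98.3 CPM in *Nrg1GOF* and at 128, 119, 119 and 119.7 CPM in WT. This is a log2 fold change of -0.34 (SE 0.06, edgeR adjusted p = 0.00158). *Chaf1a* and *Chaf1b*, subunits of the histone chaperone CAF-1, moved by like amounts. *Chaf1a* was at 38.2, 38.0, 40.6 and 38.0 CPM in *Nrg1GOF* and at 47.0, 45.3, 42.7 and 45.2 CPM in WT, a log2 fold change of -0.22 (SE 0.05, edgeR adjusted p = 0.0112). *Chaf1b* was at 23.6, 24.2, 22.7 and 22.9 CPM in *Nrg1GOF* and at 26.9, 26.8, 26.9 and 27.3 CPM in WT, a log2 fold change of -0.21 (SE 0.05, edgeR adjusted p = 0.0157). The call of *Chaf1b* was lost in 7 of 23 other settings, 1 of them a fit with 1 library removed. In these 3 genes the groups did not overlap. *Slbp*, which binds the end of histone mRNAs, was the weakest call, at a fall of 11.4% (edgeR adjusted p = 0.0478), and 20 of 23 other settings of the analysis lost it. The exons of *Chaf1a* and *Slbp* overlap *Ubxn6* and *Gm10459* on the opposite strand.

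Of the 4 genes of S-phase entry, 1 fell and 3 were not called. *E2f1* (ENSMUSG00000027490, chromosome 2, 154559407 to 154569892, minus strand), an activating E2F factor, was at 35.4, 39.6, 38.9 and 43.8 CPM in *Nrg1GOF* and at 52.7, 47.3, 51.2 and 49.5 CPM in WT, a log2 fold change of -0.36 (SE 0.07, edgeR adjusted p = 0.00389) with no overlap. *E2f2* was at 13.7, 14.2, 11.5 and 11 CPM in *Nrg1GOF* and at 16.3, 14, 13.9 and 13.0 CPM in WT. Its interval, from -0.42 to 0.07, is wide at this level. *Ccne2*, a cyclin E that drives CDK2 at the start of S phase, was at 50.3, 45.7, 39.6 and 43.3 CPM in *Nrg1GOF* and at 49.4, 50.6, 42.4 and 42.8 CPM in WT. The groups overlapped throughout, and the intervals of *Ccne2* (-0.24 to 0.15) and *Ccne1* (-0.20 to 0.19) both hold 0. With libraries scaled to the cardiomyocyte markers, *Ccne1* was called higher, as were 36.8% of all genes, and *E2f1* was not called. The exons of *Ccne2* overlap *Ints8* on the opposite strand.

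**Figure D2:**
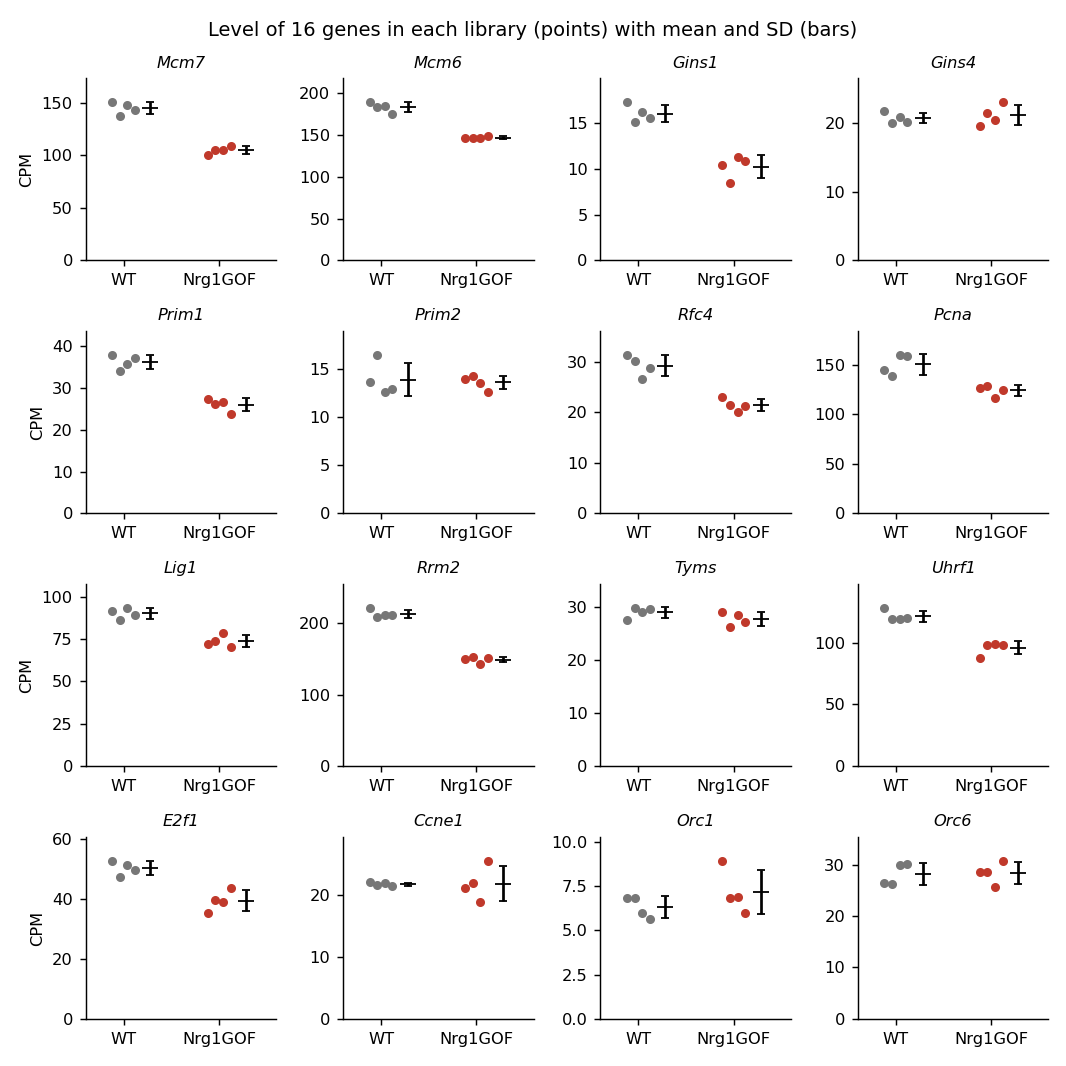
CPM (y axis, from 0) in each library for 16 of the genes, with WT in grey and *Nrg1GOF* in red, and the group mean ± SD (n = 4) beside the points. *Mcm7*, *Gins1*, *Prim1*, *Rfc4* and *Rrm2* show separate groups, whereas *Gins4*, *Prim2*, *Tyms*, *Ccne1*, *Orc1* and *Orc6* show groups that overlap.

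The genes that were called and those that were not differed in level as well as in size of change. The 25 called genes had a median WT level of 52.6 CPM and the 18 others of 28.6 CPM, and the median half-width of the 95% interval was 0.13 and 0.19 on the log2 scale. None of the 18 had an interval that reached a fall of 0.5, the lowest bound being -0.42, so a change as large as that of *Rrm2* was outside the interval of each. In 5 of the 18 the interval was below 0, namely *Mcm3*, *Mcm5*, *Mcm10*, *Gins3* and *Pola2*, and for these the data do not separate a small fall from none after adjustment over all genes. Counts of a member in a library ran from 48 to 7461. Per kilobase of exon, WT levels ran from 1.82 CPM for *Orc1*, 2.34 for *Prim2* and 2.74 for *Mcm10* up to 62.6 for *Pcna* and 76.9 for *Rrm2*, and the 6 subunits of the MCM hexamer lay within a range of 2.06-fold, from 19.0 to 39.3 CPM per kilobase. *Pcna* and *Rrm2*, the most abundant of the 43 per length, both fell.

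Subunits of the same complex did not all change by the same amount. The ratio of 2 genes' counts within a library needs no scaling between libraries, and it was taken for the 40 pairs of subunits inside 7 complexes or pairs of partners. In 17 of the 40 the ratios did not overlap between the groups, which is 42.5% against 29.3% of all pairs of tested genes. *Gins1* over *Gins4* was 0.531, 0.396, 0.556 and 0.473 in *Nrg1GOF* and 0.796, 0.757, 0.777 and 0.770 in WT. *Gins1* was thus low against its own partner in every *Nrg1GOF* library. *Prim1* over *Prim2* was 1.95, 1.85, 1.97 and 1.88 in *Nrg1GOF* and 2.78, 2.07, 2.84 and 2.88 in WT, where WT library 2 came close to the *Nrg1GOF* values. *Mcm3* over *Mcm7* was 1.08, 1.00, 1.00 and 1.00 in *Nrg1GOF* and 0.838, 0.861, 0.799 and 0.769 in WT. In the MCM hexamer 9 of 15 pairs did not overlap, 5 of them involving *Mcm7*, and in the clamp loader 1 of 10, *Rfc1* over *Rfc4*. *Chaf1a* over *Chaf1b* and *Ccne1* over *Ccne2* overlapped between the groups. These ratios are a description, with no test.

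**Figure D3:**
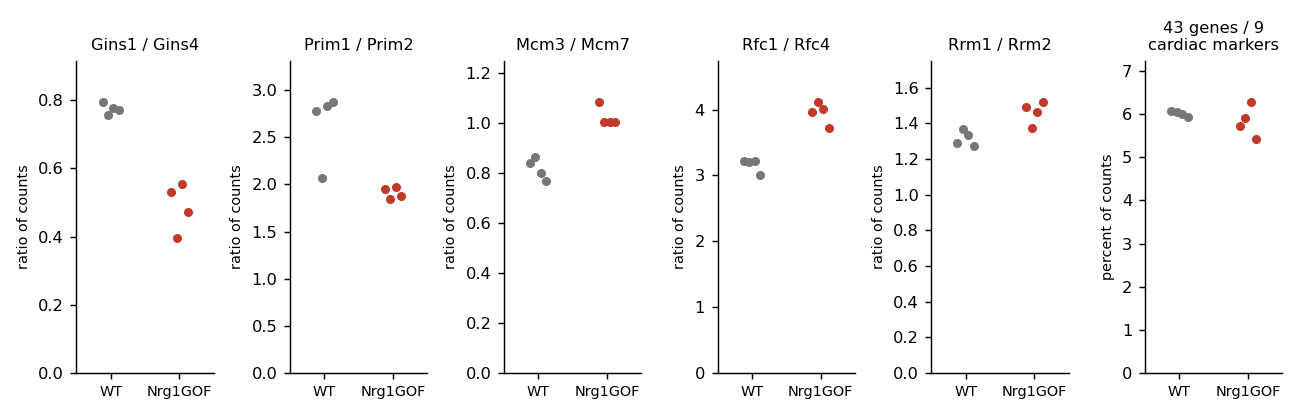
Ratio of counts within each library (y axis, from 0) for 5 pairs of subunits, and, in the last panel, the summed counts of the 43 genes as a percent of those of 9 cardiomyocyte markers, with WT in grey and *Nrg1GOF* in red (n = 4 each). The 5 ratios are separate between the groups, while the last panel shows *Nrg1GOF* values of 5.42% to 6.29% on both sides of the WT values of 5.93% to 6.07%.

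The fall was shared by the 4 *Nrg1GOF* libraries. Summed over the 43 genes, the level came to 2253, 2279, 2264 and 2345 CPM in *Nrg1GOF* and to 2838, 2755, 2766 and 2733 CPM in WT, so that the mean fell by 17.6%. In *Nrg1GOF* libraries 1 to 4, 38, 38, 41 and 40 of the 43 genes were below their WT mean, against 15 to 27 in the WT libraries. *Nrg1GOF* library 4, with the fewest counts, was the highest of its group by sum, and 24 genes were called lower without it. With 1 library removed at a time, 19 to 24 of the 43 were called lower and 0 higher, and 18 of the 25 called genes kept the call in each. Over all genes these fits called 1370 to 1868 lower, against 1993 with all libraries. When WT was represented by libraries 1 and 2, 16 of the 43 were called lower, by libraries 3 and 4, 18, and by the 2 pairs each summed into 1 library, 14. Over all genes these fits called 1308 of 16086, 1888 of 16209 and 916 of 16150 lower. None of the 43 was called higher in any of these fits, which also hold fewer samples.

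**Figure D4:**
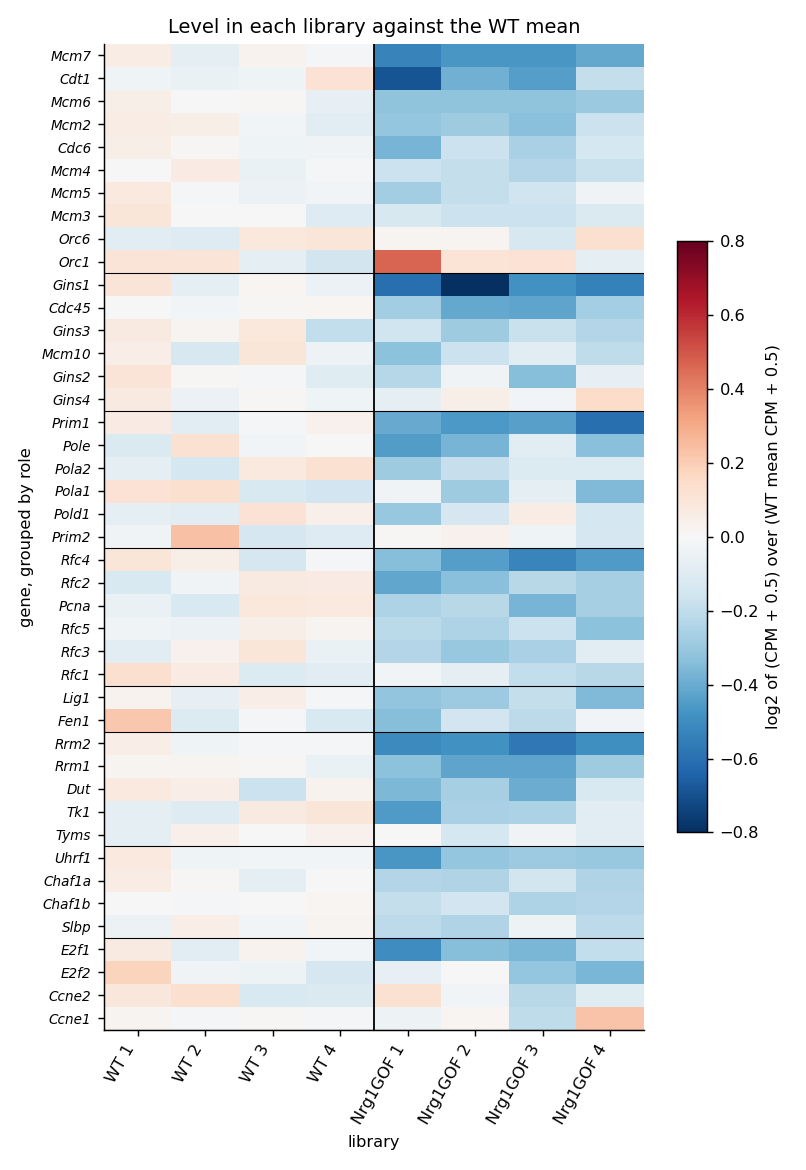
Level of each gene (rows, grouped by role) in each library (columns), as log2 of its CPM plus 0.5 over the WT mean plus 0.5, from blue (lower) to red (higher). The 4 *Nrg1GOF* columns are blue in most rows, with *Orc1*, *Orc6*, *Gins4*, *Prim2*, *Ccne1* and *Ccne2* among the palest or red rows, and the WT columns are pale throughout.

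Other genes of DNA replication, which were not on the list of 43, were also lower under TMM scaling. Of 51 such genes 23 (45.1%) were called lower and 0 higher, against 12.8% and 15.9% of all genes, with a median log2 fold change of -0.21, and 0 were called higher by DESeq2 or limma-voom. At an unadjusted p under 0.05, 33 were lower and 1, *Pold4*, higher. Over all genes, 6126 of 15580 had such a p, in either direction. Scaling by library total left 15 (29.4%) called lower, against 9.76% of all genes in that fit. Leaving out *Nrg1GOF* library 2 also gave 15, against 1370 of all 15845 genes in that fit. With each WT pair summed, 10 were called lower, against 916 of all 16150 genes. Without WT library 2, *Pold4* was called higher. With libraries scaled to the cardiomyocyte markers, 3 (5.88%) were called lower (*Gmnn*, *Shmt1* and *Nasp*) and 5 (9.80%) higher (*Pold4*, *Chtf8*, *Orc2*, *Donson* and *Pole3*), against 3.32% and 36.8% of all genes in that fit. These genes are named because the counts are small, after their values were seen. *Gmnn*, which encodes geminin, the inhibitor that keeps CDT1 from loading MCM a second time, was at 27.6, 26.4, 24.7 and 29.1 CPM in *Nrg1GOF* and at 42.5, 40.0, 42.7 and 45.3 CPM in WT. With a log2 fold change of -0.67 (SE 0.07, edgeR adjusted p = 0.000102), it changed about as much as *Gins1*. *Nasp*, a histone chaperone, was at 159 ± 7.05 CPM in *Nrg1GOF* and 222 ± 10 CPM in WT (SD, n = 4 each, edgeR adjusted p = 0.00022). *Shmt1*, an enzyme of one-carbon metabolism that feeds thymidylate synthesis, was at 31.5 ± 2.29 and 44 ± 1.22 CPM (SD, n = 4 each, edgeR adjusted p = 0.000317). *Orc2*, *Orc3*, *Orc4* and *Orc5* were not called, at log2 fold changes of 0.06, -0.06, -0.04 and -0.11, as was the case for *Orc1* and *Orc6*. None of the 6 subunits of the origin recognition complex was therefore called under TMM scaling.

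Among 22 regulators of the E2F and retinoblastoma pathway 8 (36.4%) were lower and 3 (13.6%) higher, against 12.8% and 15.9% of all genes, with a median log2 fold change of -0.14. The share called higher was thus near that of all genes. *Ccna2*, the cyclin A of S and G2 phase, was at 205, 196, 209 and 198 CPM in *Nrg1GOF* and at 277, 279.5, 285 and 282 CPM in WT, a log2 fold change of -0.48 (SE 0.05, edgeR adjusted p = 8.66e-05). *Lin54* and *Lin9*, subunits of the MuvB complex, fell by 19.1% and 23.5% (edgeR adjusted p = 0.0027 and 0.00497). *Cdkn1a*, which encodes the CDK inhibitor p21, went the other way, at 65.2, 62.0, 55.3 and 70.9 CPM in *Nrg1GOF* and at 37.0, 31.6, 32.4 and 31.5 CPM in WT. The groups were far apart, with a log2 fold change of 0.93 (SE 0.08, edgeR adjusted p = 7.03e-05). *Cdkn1c*, which encodes the inhibitor p57, rose from 282 ± 10.8 to 365 ± 54.1 CPM (SD, n = 4 each, edgeR adjusted p = 0.0156), and *Rb1* from 33.4 ± 2.38 to 39.3 ± 3.70 CPM (SD, n = 4 each, edgeR adjusted p = 0.0432). *Cdkn1b*, the related inhibitor p27, was lower, with a log2 fold change of -0.22 (edgeR adjusted p = 0.0111).

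The 30 mitotic genes, used as a yardstick for the later cell cycle, had a lower median than the replication genes, with 29 (96.7%) called lower and 0 higher, against 12.8% and 15.9% of all genes, and a median log2 fold change of -0.37. With libraries scaled to the cardiomyocyte markers, 2 (6.67%) were called lower, *Kif11* and *Bub1b*, and 0 higher, against 3.32% and 36.8% of all genes. *Bub1b*, *Kif11* and *Racgap1*, of the spindle checkpoint, the spindle and the midzone, were at -0.53, -0.56 and -0.46 (edgeR adjusted p = 7.00e-05, 0.000107 and 0.000234). Within a library, the mitotic genes held 1.17 to 1.31 times the counts of the 43 replication genes in *Nrg1GOF* and 1.29 to 1.35 times in WT, an overlap of the groups.

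**Figure D5:**
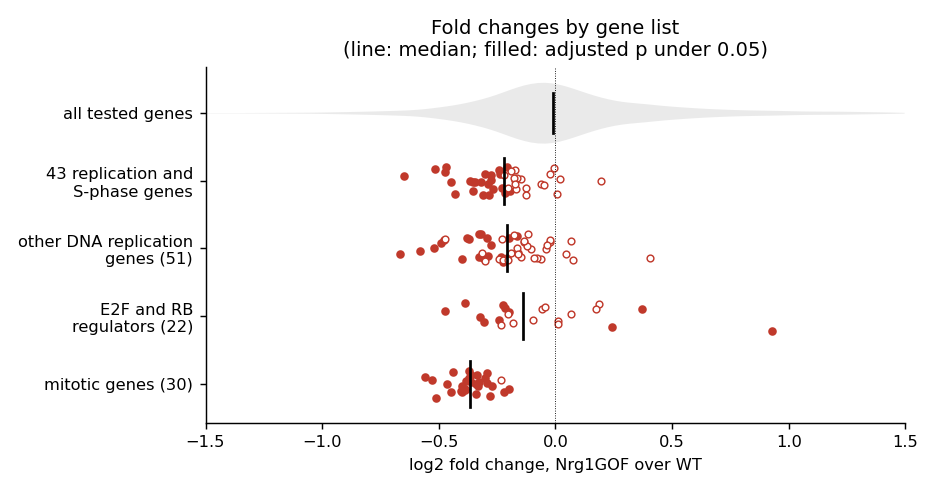
Log2 fold change (x axis, *Nrg1GOF* over WT) of all tested genes (grey, drawn between -1.5 and 1.5) and of each gene in 4 lists (points, filled where the adjusted p was under 0.05), with the median of each as a line. The medians lie at -0.01 for all genes, -0.22 for the 43 replication genes, -0.21 for other replication genes, -0.14 for E2F and RB regulators and -0.37 for mitotic genes.

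Markers of the cell types in the tissue moved with genotype as well, and their counts stand against 12.8% of all genes called lower and 15.9% called higher. The 9 cardiomyocyte markers summed to 35971 to 43267 CPM in *Nrg1GOF* and 45597 to 46747 CPM in WT, with 5 of 9 called lower. Higher in *Nrg1GOF* were 5 of 10 endothelial and endocardial markers (sums of 1443 to 1561 against 1300.0 to 1360.1 CPM), 8 of 10 epicardial and fibroblast markers, with 1 lower (5899.7 to 7631 against 3348 to 4491 CPM), and 8 of 8 macrophage markers (112 to 130.1 against 57.4 to 71.0 CPM). Of 6 atrial markers 3 were higher (1601 to 1774 against 1001 to 1119.9 CPM). Of 11 red blood cell markers found, 0 were called, with 0 at an unadjusted p under 0.05, and their sums were 5453 to 8921 CPM in *Nrg1GOF* and 13063, 12218, 5522 and 4433 CPM in WT libraries 1 to 4. No marker of these lists that was found in the table was at 0 in any library. The red blood cell sums split the WT libraries into 2 pairs, as did the sums of the other lists except the cardiomyocyte markers. The epicardial and fibroblast sums, for example, were 4482 and 4491 against 3348 and 3377 CPM. The sums of the 43 genes in these pairs were 2838 and 2755 against 2766 and 2733 CPM and overlapped.

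The calls of the replication genes depended on what the libraries were scaled to. Against the summed counts of the 9 cardiomyocyte markers, the 43 genes stood at 5.73%, 5.91%, 6.29% and 5.42% in *Nrg1GOF* and at 6.07%, 6.04%, 6.0% and 5.93% in WT, with overlap. With libraries scaled to these markers, an alternative chosen after the data were seen, 3 genes (6.98%) were called lower (*Mcm7*, *Gins1* and *Rrm2*) and 4 (9.30%) higher (*Orc1*, *Orc6*, *Gins4* and *Ccne1*), and the median of the 43 was 0.025. Over all genes, that fit called 3.32% lower and 36.8% higher. That scaling also moved the median of all genes from -0.01 to 0.23, and since a scaling shifts all genes by about the same amount, the difference of the 43 from that median, -0.21, is about the same under both by construction. The markers are no fixed reference, since 5 of them were lower in *Nrg1GOF* under TMM scaling. *Myh7*, among these, held the largest part of the sum, at a mean of 17606 CPM in WT and 12616 CPM in *Nrg1GOF*. *Actc1* was at 10393 and 10402 CPM, and *Myh6* had a log2 fold change of 0.51 and was not called. Of the 9 log2 fold changes, 7 were below 0. Scaling by library total left 20 genes (46.5%) called lower and 0 higher, against 9.76% and 18.4% of all genes. Whether the changed makeup of the tissue takes part in the lower level of the replication genes was not tested.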

How the data were processed

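Ventricles of E15.5 embryos were profiled with 4 *Nrg1GOF* and 4 WT libraries, grouped by sample title. The authors made directional poly(A) libraries from 100 ng of RNA, sequenced as single reads of 60 bases, and deposited RSEM expected counts per gene, not scaled for depth or length, in which a read that fits several genes is shared between them. The submitters' processing notes name cutadapt, RSEM 1.3.1 and GRCm38. The aligner and the strand setting were not given in the sources used here.

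Expected counts were rounded, filtered with filterByExpr, scaled by TMM and tested with the quasi-likelihood F-test of edgeR 4.0.16 (R 4.3.3), two-sided, with genotype as sole term, on all 15580 genes that passed, with Benjamini-Hochberg adjustment (calls at 0.05). SE is the absolute log2 fold change over the square root of F. Library totals were 8038641 to 26786039 counts, where 3 counts stand for 0.373 to 0.112 CPM; these floors cover counting error only. DESeq2 1.42.0, limma 3.58.1, other scalings and filters, a replicate block and fits leaving out libraries were alternatives. Positions, exon lengths and overlaps came from GENCODE M21 on GRCm38. Pseudogenes were aligned to the genes with BLAST+ 2.17.0 (at least 90% identity over 50% of the copy). Of 16 matches between a gene and a copy, over 12 genes, 13 were to copies with 0 counts.

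The 43 genes and the other lists were chosen with earlier results of these data known. Values per library are given for the 3 genes with the lowest adjusted p in each role, and other lists are represented by the 3 lowest adjusted p in each direction. *Cdt1*, *Orc1*, *Orc6*, *Gins4*, *Prim2*, *Tyms*, *Ccne1*, *Cdkn1b*, *Orc2* to *Orc5* and the ratios were added after their values were seen.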

Additional observations from a re-analysis of the deposited data

Results flagged for a closer look

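Dixon's test at the 95% level was applied to the highest and lowest library of each group of 4, comparing the distance to its neighbour with the spread of the whole group. Of 88 groups tested, the 43 genes in both genotypes and the library totals, 7 held such a value, where chance at 1 in 20 gives 4.4.

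*Uhrf1* was outlying in both genotypes, at 128 CPM in WT library 1 against 119 to 119.7 CPM in the other WT libraries, and at 87.8 CPM in *Nrg1GOF* library 1 against 97.9 to 99.2 CPM. *Cdt1* was at 55.4 CPM in WT library 4 against 49.3 to 49.8 CPM. *Mcm6* was at 149 CPM in *Nrg1GOF* library 4 against 146 to 146 CPM, a small difference that stands out because the other 3 were nearly equal. *Chaf1a* was at 40.6 CPM in *Nrg1GOF* library 3 against 38.0 to 38.2 CPM, and *Slbp* was at 52.6 CPM in *Nrg1GOF* library 3 against 45.7 to 46.8 CPM. The total of *Nrg1GOF* library 4 was 8038641 counts, against 20578081 to 22547833 in the other *Nrg1GOF* libraries. In each gene but *Slbp* the outlying value left the groups without overlap.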

How the results depend on the processing

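The 25 replication genes called lower became 14 with each WT pair summed, 16 against WT libraries 1 and 2 alone and 16 at an adjusted p under 0.01. Over all genes these settings called 916 of 16150, 1308 of 16086 and 1032 of 15580 lower, against 1993 of 15580 in the main fit. With libraries scaled to the cardiomyocyte markers 3 of the 43 were called lower and 4 higher, where 3.32% and 36.8% of all genes were. For the 43 genes the other alternatives gave 18 to 25 lower and 0 higher, DESeq2 and limma-voom 24 each, thinning to equal depth 18. Leaving out a library gave 19 to 24 lower and a median log2 fold change of -0.23 to -0.21. That median was -0.18 when scaled by library total, and reversed to 0.025 when scaled to the cardiomyocyte markers, where 25 of the 43 values lay above 0. That scaling moved the median of all genes from -0.01 to 0.23, so values a little below 0 turn sign by construction. The sign of 22 genes turned there, among them the called genes *Cdc6* (0.00016), *Mcm4* (0.043), *Rfc3* (0.011), *Rfc5* (0.0056), *Chaf1a* (0.026), *Chaf1b* (0.035) and *Slbp* (0.070). The others, called in neither fit except *Ccne1* (0.23, called higher), were *Mcm3* (0.092), *Mcm5* (0.074), *Mcm10* (0.045), *Gins2* (0.070), *Gins3* (0.025), *Pola1* (0.071), *Pola2* (0.067), *Prim2* (0.22), *Pold1* (0.12), *Rfc1* (0.12), *Fen1* (0.052), *Tyms* (0.18), *Ccne2* (0.19) and *E2f2* (0.069). Elsewhere the sign turned in 5 genes near 0, called in none of these settings. Against WT libraries 3 and 4 alone, *Orc6* was at -0.081, *Prim2* at 0.10, *Ccne1* at 0.0048 and *Ccne2* at 0.079. Scaling by library total put *Prim2* at 0.022 and *Ccne1* at 0.037, and limma-voom put *Orc6* at -0.0099 and *Prim2* at 0.0075. *Orc6* was at -3.54e-05 after thinning, and *Ccne1* at 0.0085 with the CPM filter and 0.00016 with the WT pairs summed. Leaving out a library gave -0.028 to 0.059 for *Orc6*, -0.0074 to 0.055 for *Gins4*, -0.068 to 0.063 for *Prim2*, -0.068 to 0.068 for *Ccne1* and -0.11 to 0.017 for *Ccne2*. The other DNA replication genes called lower became 10 with each WT pair summed, 15 against WT libraries 1 and 2 alone and 12 at an adjusted p under 0.01. Over all genes these settings called 916, 1308 and 1032 lower, against 1993 in the main fit. Against WT libraries 3 and 4 alone, 17 of the other DNA replication genes were called lower, and 1888 over all genes. The fit with fewer WT libraries has fewer samples; other causes were not tested. Of the 25 calls, 12 held in all 23 settings fixed with the design. With the replicate block 23 genes were called lower. Deviations of same-numbered libraries correlated at 0.129, 0.049, 0.199 and 0.067, and those of differently numbered libraries at -0.263 to 0.187. The ranges overlap, though all same-numbered values were above 0, and whether the numbers mark a pairing was not tested. Over all genes, library-total scaling moved the share of calls that were higher from 55.4% to 65.4%, and scaling to the cardiomyocyte markers to 91.7%. In the 100 bases before the start, E2F words were held by 4 of 35 genes (11.4%) against 0.98% of all genes. Depth limits *Nrg1GOF* library 4 most.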
